A study of Mus musculus with 6 samples.

Results

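The Dlx genes are relatives of the fly gene Distal-less and encode homeodomain transcription factors, proteins that bind DNA at short sites with a TAATTA core. In the embryonic forebrain they are known as the shared regulators of cells that will make the inhibitory transmitter GABA. These cells are born in the ganglionic eminences below the cortex, where Dlx1 and Dlx2 come on in progenitors and Dlx5 and Dlx6 follow as the cells leave the cycle, and many of them then migrate sideways into the cortex. Dlx6os1, also known as Evf2, is a long noncoding RNA read from the strand opposite to Dlx6 and has been described as a regulator of Dlx5 and Dlx6. Cortical projection neurons, which use glutamate, are not known to use this family.

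The 5 transcripts Dlx1, Dlx2, Dlx5, Dlx6 and Dlx6os1 were taken by their symbols from a table of read counts with 45583 gene rows, and all 5 passed the filter on low counts that left 13741 genes. The table held 6 libraries of cerebral cortex, each from 1 male fetus collected at GD15.5 (GD is the gestational day), with 3 libraries in each of the groups compared. Every fetus came from the Cyp19-EGFP strain, an aromatase reporter line in which a bacterial artificial chromosome carries EGFP placed at the start codon of Cyp19a1, and the labels give the genotype WT, SRY + for all. The vehicle group (peanut oil) and the BPA group came from dams injected under the skin from GD10.5 to GD14.5, the latter with bisphenol A, a plastic monomer with estrogenic activity, at 50 µg/kg. Whether the fetuses of a group shared a dam is not given in the sources used here, so the p-values measure only the spread between these samples. The libraries held 3444601 (BPA replicate 3) to 7180835 (vehicle replicate 2) counts, at which 3 counts correspond to 0.873 and 0.421 CPM (CPM are counts scaled to a common library size with TMM factors, the trimmed mean of M-values).

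The 4 coding genes are arranged as convergent pairs, each pair read toward its own middle. On chromosome 2 of GRCm38, Dlx1 (ENSMUSG00000041911.3) occupied 71528113 to 71533981 on the plus strand and Dlx2 (ENSMUSG00000023391.8) 71543408 to 71546754 on the minus strand, with 9426 bp between them. On chromosome 6, Dlx6 (ENSMUSG00000029754.13) occupied 6863334 to 6868568 on the plus strand and Dlx5 (ENSMUSG00000029755.10) 6877805 to 6882085 on the minus strand, with 9236 bp between them. Dlx6os1 (ENSMUSG00000090063.6) ran over 51404 bp on the minus strand, from 6820189 to 6871592, so that all 5235 bp of Dlx6 lay inside it. No exon of Dlx6os1 overlapped an exon of Dlx6. On the other chromosome Dlx1as, the antisense transcript of Dlx1, shared 335 bp of exon with Dlx1, which was 6.21% of the exonic bases of Dlx1 and 20.6% of its own.

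The start regions of the members show that the coding pair on chromosome 2 and the antisense transcript on chromosome 6 begin in DNA of very different composition. The RefSeq promoter table of GRCm38.p6, with 250 bases before and 50 after each start, held entries for Dlx1, Dlx2 and Dlx6os1. One window is printed for each, 5′ to 3′ on the strand of the gene, because the antisense start lies in the interval between Dlx6 and Dlx5. The windows are chr2:71529195-71529494 on the plus strand for Dlx1, chr2:71546705-71547004 on the minus strand for Dlx2 and chr6:6869484-6869783 on the minus strand for Dlx6os1. The Dlx1 and Dlx6os1 windows lie inside the gene spans given above, so these RefSeq starts are not the outermost starts of those spans. Capitals mark the letters TAATTA, the homeodomain core, which reads the same on both strands.
Dlx1: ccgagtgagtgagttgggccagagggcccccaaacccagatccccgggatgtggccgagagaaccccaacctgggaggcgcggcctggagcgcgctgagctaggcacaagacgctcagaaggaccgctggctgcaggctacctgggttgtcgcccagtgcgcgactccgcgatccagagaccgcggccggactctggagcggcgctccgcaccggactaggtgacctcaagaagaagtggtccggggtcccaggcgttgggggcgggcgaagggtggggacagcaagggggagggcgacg
Dlx2: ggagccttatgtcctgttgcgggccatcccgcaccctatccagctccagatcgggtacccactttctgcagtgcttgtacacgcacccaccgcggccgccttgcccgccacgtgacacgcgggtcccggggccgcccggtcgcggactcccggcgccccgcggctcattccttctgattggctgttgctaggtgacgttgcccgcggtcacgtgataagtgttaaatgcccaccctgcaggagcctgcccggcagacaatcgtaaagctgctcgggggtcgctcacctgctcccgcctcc
Dlx6os1: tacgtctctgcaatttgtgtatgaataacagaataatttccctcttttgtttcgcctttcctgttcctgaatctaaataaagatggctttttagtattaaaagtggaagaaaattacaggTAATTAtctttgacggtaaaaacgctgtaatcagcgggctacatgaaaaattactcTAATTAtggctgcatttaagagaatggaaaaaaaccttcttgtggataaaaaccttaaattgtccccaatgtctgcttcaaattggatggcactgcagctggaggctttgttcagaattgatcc
The Dlx1 and Dlx2 windows were rich in G and C (69.3% and 66.3%) and held 27 and 29 CpG dinucleotides, with no TAATTA. The Dlx6os1 window had 35.7% G and C, 5 CpG and 2 copies of TAATTA. A further Dlx6os1 start in the table, chr6:6861634-6861933, had 35.3% G and C, 3 CpG and 1 copy. The letters TAATTA occurred in 5.29% of all 32851 windows, and in 18.1% of the 3510 windows with at most 40% G and C. The median window held 52.7% G and C. The matches describe letters only, and binding was not measured in these libraries.

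All 5 transcripts were present in every library, at levels that spanned an order of magnitude. Per exonic length, in CPM per kilobase of merged exons (RPKM), Dlx1 was highest with a mean of 62.6 and a range of 52.5 to 69.4 over the 6 libraries. Dlx2 followed at 50.1 (33.7 to 65.0), and its range overlapped that of Dlx1 although Dlx1 was the higher of the pair in 6 of 6 libraries. Dlx6os1 came next at 32.9 RPKM (29.3 to 40.4). It was lower than Dlx2 in 6 of 6 libraries, again with overlapping ranges. Dlx5 averaged 19.3 RPKM (15.9 to 22.5) and Dlx6 6.15 RPKM (4.68 to 6.98), and the ranges of these lower transcripts did not overlap each other or that of Dlx6os1. Taking the longest transcript as the length, a choice made after seeing the data, kept the order in 6 of 6 libraries, but Dlx6os1 (32.9 to 45.3 RPKM) and Dlx5 (25.4 to 35.7 RPKM) then overlapped.

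**Figure D1:**
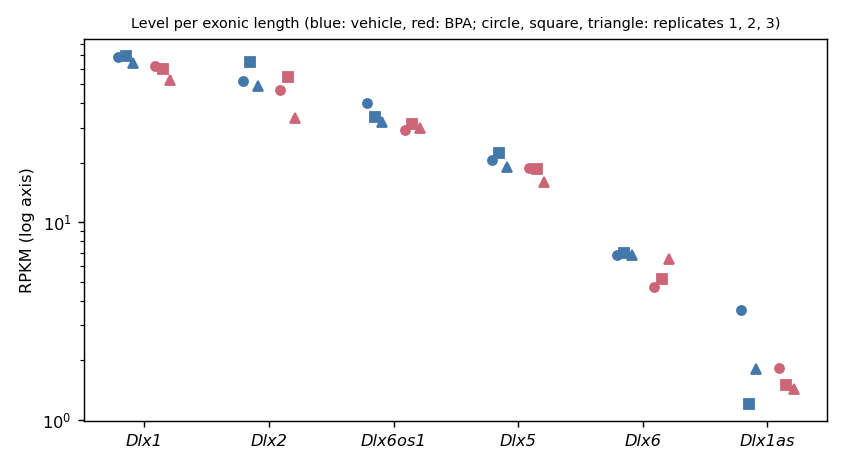
Level of each Dlx transcript and of Dlx1as per exonic length (vertical axis, RPKM on a log axis) in the 3 vehicle and 3 BPA libraries, where each point is 1 library and the shape gives the replicate. The order from Dlx1 at the top to Dlx6 holds in all 6 libraries, from means of 62.6 to 6.15 RPKM, with Dlx1as lowest.

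The rest of the family was at or near 0. Dlx3 had 0 to 1 counts per library and Dlx4 had 0 counts in all 6, which allows up to 0.873 CPM in the shallowest library. These are the pair on chromosome 11, known from skin, bone and placenta. Dlx6os2 had 0 to 9 counts and Dlx6os3 0 to 3 counts, and none of these 4 transcripts passed the filter. Dlx1as was tested, at 8 to 40 counts per library and a mean level of 1.89 RPKM.

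Dlx1, the most abundant member and a factor with a role in the survival of interneurons, was lower in every BPA library than in every vehicle library. It was read at 369, 374 and 345 CPM in vehicle replicates 1 to 3 and at 332, 322 and 283 CPM in BPA replicates 1 to 3. The means were 363 ± 15.54 CPM and 313 ± 25.8 CPM (SD, n = 3 each), so that the BPA mean stood at 86.2% of the vehicle mean. The log2 fold change was -0.21 (SE 0.0945, 95% interval -0.41 to -0.012, unadjusted p = 0.0389, adjusted p = 0.9998 by edgeR's quasi-likelihood test with Benjamini-Hochberg adjustment over all genes tested). In bulk tissue, fewer cells of a type and less RNA per cell cannot be told apart, here and in the comparisons that follow.

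Dlx2, which acts with Dlx1 in eminence progenitors, had the widest spread between libraries of the same group. Its levels were 148, 186 and 139 CPM with vehicle and 134, 155 and 96.3 CPM with BPA. BPA replicate 2 was higher than 2 of the vehicle libraries, so the groups overlapped. The means were 158 ± 24.5 and 128 ± 29.6 CPM (SD, n = 3 each), with a log2 fold change of -0.29 (SE 0.148, 95% interval -0.60 to 0.026, edgeR adjusted p = 0.9998). The SD of log2 CPM over the 6 libraries was 0.31 for Dlx2, against 0.15 for Dlx1 and 0.17 for Dlx5. The fold change of Dlx2 also rested most on single libraries: it was -0.15 without vehicle replicate 2, -0.13 without BPA replicate 3 and -0.45 without BPA replicate 2.

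Dlx5, which is used by cells leaving the progenitor pool and also outside the brain in developing bone, was read at 46.9, 50.8 and 43.3 CPM with vehicle and at 42.7, 42.0 and 36.1 CPM with BPA. The groups did not overlap, but the lowest vehicle and the highest BPA library lay close together. The log2 fold change was -0.22 (SE 0.121, 95% interval -0.47 to 0.039, edgeR adjusted p = 0.9998). Its neighbor Dlx6 was the least abundant member, at 16.1, 16.6 and 16.1 CPM with vehicle and 11.1, 12.3 and 15.4 CPM with BPA. The vehicle libraries were nearly equal, while BPA replicate 3 stood close to them and the other BPA libraries below. Its log2 fold change was -0.36 (SE 0.169, 95% interval -0.72 to 0.0018, edgeR adjusted p = 0.9998). This was larger in size than that of Dlx2 in the fit of all libraries, but smaller when vehicle replicate 3 was left out, and likewise for either of BPA replicates 1 and 2. Dlx6 rested on 53 to 118 counts per library, and counting error alone gave an SE of 0.131 on this fold change, against 0.0266 for Dlx1.

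Dlx6os1 had 12.9 times the counts of Dlx6 in vehicle replicate 1 and at least 10.1 times in every library. It was read at 209, 177 and 167 CPM with vehicle and at 151, 162 and 156 CPM with BPA. The groups did not overlap, and vehicle replicate 1 stood above the other 5 libraries. The means were 184 ± 21.7 and 156.5 ± 5.53 CPM (SD, n = 3 each), the log2 fold change was -0.24 (SE 0.103, 95% interval -0.46 to -0.017) and the unadjusted p was 0.0365, with an edgeR adjusted p of 0.9998. Without vehicle replicate 1 the log2 fold change was -0.14. Dlx1as was read at 5.87, 1.97 and 2.95 CPM with vehicle and at 2.98, 2.43 and 2.33 CPM with BPA, with overlapping groups (log2 fold change -0.46, SE 0.387). Its direction came from vehicle replicate 1, since without that library the fold change was 0.12.

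**Figure D2:**
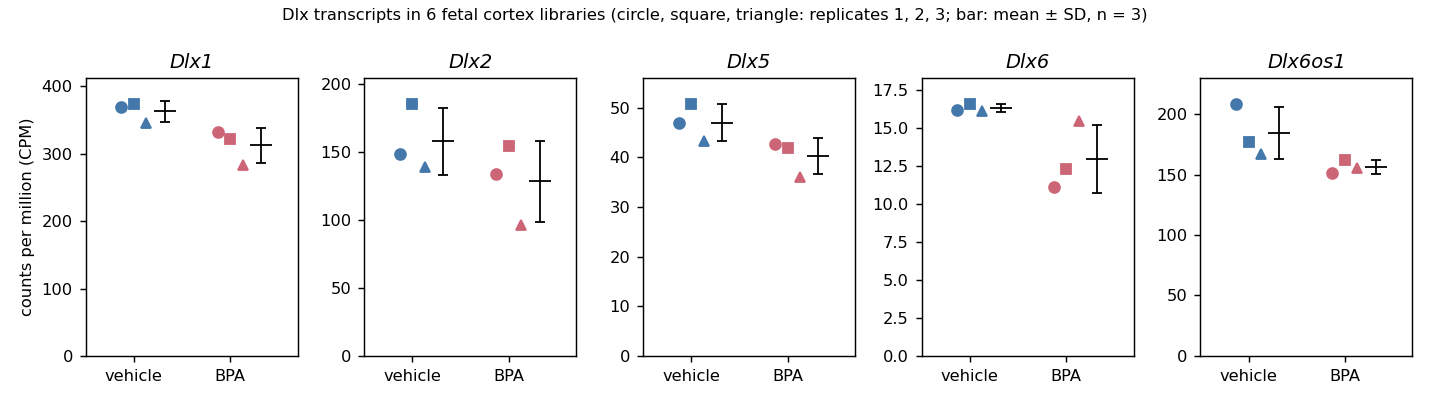
CPM of Dlx1, Dlx2, Dlx5, Dlx6 and Dlx6os1 in each library (vertical axes, CPM from 0), where each point is 1 of 3 replicates of the vehicle or BPA group and the bar gives mean ± SD. The BPA points lie below the vehicle points without overlap for each transcript except Dlx2, and the BPA means are 79.6% to 86.2% of the vehicle means.

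Against the whole transcriptome the 5 members had like, small differences, none of which passed the threshold. An adjusted p under 0.1 was reached by 0 of 5 members, and by 0% of the 13741 genes tested. At an unadjusted p under 0.05, 2 of 5 members (Dlx1 and Dlx6os1) were lower in BPA, against 1.18% of all genes, and groups that did not overlap, lower in BPA, were found for 4 of 5 members, against 3.57% of all genes. The log2 fold change was below 0 for 5 of 5 members and for 49.5% of all genes. The median of the members was -0.24 and that of all genes 0.0016, and 9.06% of genes had a fold change at or below the highest of the members. The smallest adjusted p of any gene was 0.251, and 302 genes had an unadjusted p under 0.05 in either direction. The best placed member, Dlx6os1, ranked 195 by unadjusted p. The members are linked genes active in the same cells and are not independent of each other. Their unadjusted values also depended on single libraries: edgeR gave Dlx1 and Dlx6os1 unadjusted values of 0.0797 and 0.220 without vehicle replicate 1, and of 0.187 and 0.0783 without BPA replicate 3. Adjusted over all genes, these values were 0.999 or above.

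The summed level of the 5 members was 789, 804 and 711 CPM with vehicle and 671, 693.5 and 587 CPM with BPA (768 ± 49.9 and 650.5 ± 56.4, SD, n = 3 each). Dlx1 took 46.5% to 49.5% of the summed counts, Dlx6os1 22.0% to 26.5%, Dlx2 16.4% to 23.1%, Dlx5 5.95% to 6.37% and Dlx6 1.66% to 2.63%. The shares of Dlx1 and Dlx5 varied little between libraries, and those of Dlx2 and Dlx6 varied most. Ratios within a library, which need no scaling, asked whether the members differed by unequal amounts. They were compared by two-sided exact permutation tests, for which 3 against 3 libraries cannot give a p below 0.1.

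The 2 chromosome 2 genes were compared as the ratio of Dlx1 to Dlx2, which was 2.49, 2.02 and 2.48 with vehicle and 2.48, 2.09 and 2.94 with BPA (log2 difference 0.097, exact p = 0.7). The ratio of Dlx5 to Dlx6 was 2.91, 3.07 and 2.68 with vehicle and 3.85, 3.41 and 2.34 with BPA (log2 difference 0.12, exact p = 0.6). The BPA libraries thus lay on both sides of the vehicle libraries for this pair. Dlx6os1 to Dlx6 gave 12.9, 10.7 and 10.4 with vehicle and 13.6, 13.2 and 10.1 with BPA (log2 difference 0.11, exact p = 0.7). The sum of Dlx5 and Dlx6 over that of Dlx1 and Dlx2 was 0.122, 0.120 and 0.123 with vehicle and 0.116, 0.114 and 0.136 with BPA (log2 difference -0.0042, exact p = 1). No difference between the groups was detectable in the 4 ratios, and Benjamini-Hochberg adjustment over them gave exact p-values of 0.933 to 1. At this number of libraries the SD of the log2 ratio over all 6 was 0.20 for Dlx1 to Dlx2, 0.25 for Dlx5 to Dlx6 and 0.089 for the ratio between the chromosomes.

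**Figure D3:**
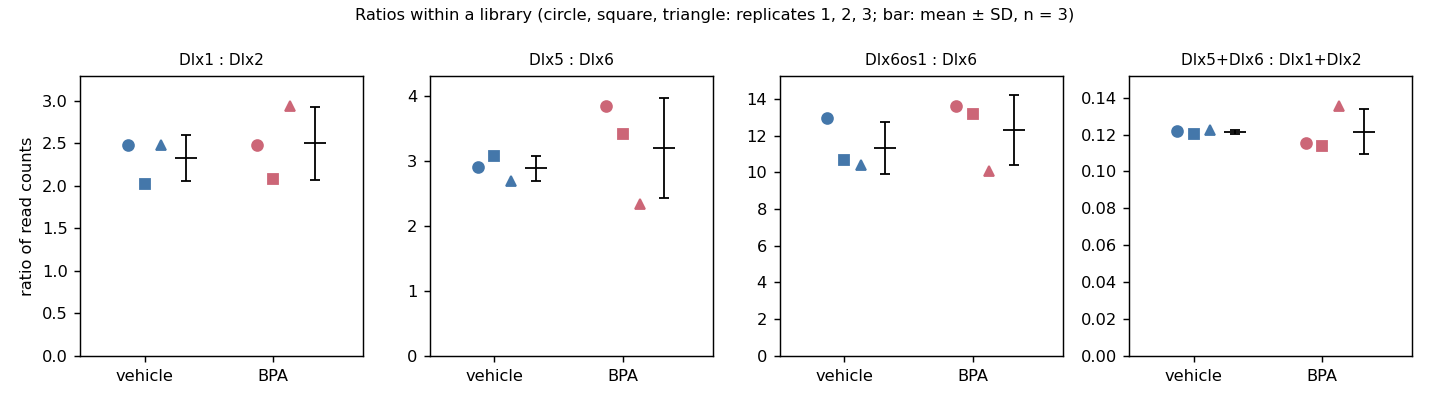
Ratios of read counts between Dlx transcripts within each library (vertical axes, ratio from 0), where each point is 1 of 3 replicates per group and the bar gives mean ± SD. The groups overlap in all 4 panels, and the ratio of Dlx5 plus Dlx6 to Dlx1 plus Dlx2 lies between 0.114 and 0.136 in all 6 libraries.

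The reads of the family members can be told apart by sequence at most positions, with limits on the antisense pairs. Within the homeobox, the 180 bp that encode the DNA-binding domain, the 4 coding genes were 71.1% to 76.7% identical in bases, and the longest identical run was 15 bp, shorter than the 50-base reads. None of the 50-base words of Dlx2 and Dlx5 transcripts occurred in a transcript of another gene. For Dlx6, 4.72% of words on the same strand were shared, and for Dlx6os1 1.09%. Without regard to strand the shared part was 6.09% for Dlx6, with 596 other genes, 6.74% for Dlx6os1 and 5.19% for Dlx1. The library kit marked strand, but whether the counting used it is not stated, so unspliced Dlx6os1 RNA over Dlx6 exons cannot be told apart from Dlx6. With Dlx6 and Dlx6os1 summed to 1 feature the log2 fold change was -0.24 (SE 0.101), and with Dlx1 and Dlx1as summed it was -0.22 (SE 0.0945). These sums consist mostly of Dlx6os1 and Dlx1 counts, so they cannot show how reads are divided within either pair.

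Of the 13 genes tested beside the Dlx pairs, 11 had a log2 fold change below 0, against 49.5% of all genes. Most of the 11 lay so close to 0 that their sign says little, and Dcaf17 and Mettl8 lay above 0. Within 500 kb of Dlx1 and Dlx2, 10 of 22 annotated genes were tested. Of these, 0 had an unadjusted p under 0.05 in edgeR, against 2.2% of all genes in either direction. Metap1d, a mitochondrial aminopeptidase gene 2.9 kb away, had 13.9 CPM with vehicle and 12.7 CPM with BPA (log2 fold change -0.13, SE 0.185). The log2 fold changes were close to 0 for Hat1 (-0.0055), Slc25a12 (-0.0011), Itga6 (-0.0062), Dync1i2 (-0.0055), Pdk1 (-0.0067) and Rapgef4 (-0.0095). Cybrd1 stood at -0.24 (SE 0.252), Dcaf17 at 0.094 (SE 0.190) and Mettl8 at 0.26 (SE 0.195). Around Dlx5 and Dlx6, 3 of 17 annotated genes were tested, with 0 at an unadjusted p under 0.05 and 3 of 3 below 0. These were Shfm1 (log2 fold change -0.20, SE 0.133), a proteasome subunit gene now called Sem1, Sdhaf3 (-0.24, SE 0.282), an assembly factor of succinate dehydrogenase, and Gm5873 (-0.0077, SE 0.213).

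Transcription factors of eminence progenitors had fold changes of the same sign as the Dlx genes. Of 12 such factors listed, all were tested and 12 had a log2 fold change below 0, against 49.5% of all genes. Their median was -0.39, and 7 did not overlap between groups, lower in BPA, against 3.57% of all genes. None passed an adjusted p of 0.1, and 6 had an unadjusted p under 0.05, all lower in BPA, against 1.18% of all genes. This list and those that follow were chosen with earlier results of these data known. Nkx2-1, which specifies the medial eminence, was at 42.7, 38.9 and 25.95 CPM with vehicle and at 12.8, 20.9 and 10.47 CPM with BPA. Its log2 fold change was -1.25 (SE 0.220, edgeR adjusted p = 0.251), an adjusted p that only Thoc7, a gene outside the lists named after its value was seen, matched among all genes. DESeq2 (adjusted p = 0.00137) and edgeR's likelihood ratio test (0.000380) put it past the threshold. The limma-voom fit did not (adjusted p = 0.39). Nor did the quasi-likelihood test with library size alone (0.199) or with at least 10 CPM in 3 libraries (0.339). Six3, a factor of the septum and lateral eminence, had a fold change of -0.42 (SE 0.124), and Olig2, which marks progenitors of the ventral forebrain, -0.44 (SE 0.164). Meis2, the most abundant factor listed at 540.1 CPM with vehicle, had -0.15 (SE 0.0965), and -0.087 without vehicle replicate 2.

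Factors of postmitotic inhibitory neurons had fold changes of both signs. Of 16 listed and tested, 11 had a log2 fold change below 0 and 5 above it, with a median of -0.16. At an unadjusted p under 0.05, 6 were lower in BPA and 0 higher, against 1.18% of all genes lower. Groups did not overlap for 7 factors lower in BPA and for 1 higher, against 3.57% and 3.2% of all genes. The median was -0.091 without vehicle replicate 2. None passed the adjusted threshold in edgeR's quasi-likelihood test. Lhx8, needed for cholinergic neurons of the basal forebrain, was at 20.1, 13.1 and 10.0 CPM with vehicle and at 3.29, 8.75 and 4.95 CPM with BPA (log2 fold change -1.34, SE 0.314, adjusted p = 0.9998). Isl1, a factor of striatal and cholinergic neurons, had -0.36 (SE 0.132) and Foxp2, a factor of striatal projection neurons also present in deep cortical layers, -0.27 (SE 0.113). Zeb2, a Dlx target in migrating interneurons that projection neurons also use, had 0.027 (SE 0.0886). Satb1, a factor of maturing interneurons that is also used by projection neurons, stood at 0.11 (SE 0.0918), and its BPA libraries (181, 188 and 181 CPM) were all above its vehicle libraries (172, 175 and 160 CPM).

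Genes for making and handling GABA, among them known Dlx targets, had fold changes below 0. All 7 listed were tested and 7 had a log2 fold change below 0, with a median of -0.14. At an unadjusted p under 0.05, 2 were lower in BPA, against 1.18% of all genes. The median rested on vehicle replicate 1, without which it was -0.039. Abat, which breaks GABA down, had -0.31 (SE 0.108) and Slc32a1, the vesicular transporter of GABA, -0.33 (SE 0.134), the latter -0.19 without BPA replicate 1. Gad2, a GABA-synthesizing enzyme, was at 194, 159 and 158 CPM with vehicle and at 158.0, 150.2 and 156 CPM with BPA (log2 fold change -0.14, SE 0.103). Vehicle replicate 1 stood above the rest, and without it the fold change was -0.034. Slc6a11, a GABA transporter mainly of glia, had -0.28 (SE 0.157), and -0.13 without BPA replicate 1.

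Migration genes and interneuron subtype markers had fold changes of both signs. Of 12 listed and tested, 9 had a log2 fold change below 0 and 3 above it, with a median of -0.13, and 0 had an unadjusted p under 0.05 in edgeR. Robo1, an axon guidance receptor, had -0.16 (SE 0.0987), Pak3, a kinase whose gene is held down by Dlx factors in migrating cells, -0.14 (SE 0.111), Npy, a neuropeptide of interneurons, -0.21 (SE 0.163), and Nrp2, a semaphorin receptor, 0.022 (SE 0.103). These values rested on single libraries: without vehicle replicate 1, Robo1 was at -0.067 and Pak3 at -0.026, and without BPA replicate 1, Npy was at -0.026 and the median of the list at -0.013. Read against the 5 members, whose median was -0.24, the list of progenitor factors had a median of -0.39 and the other 3 lists medians of -0.16 to -0.13, beside 0.0016 for all genes. These medians are descriptions and were not tested against each other.

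**Figure D4:**
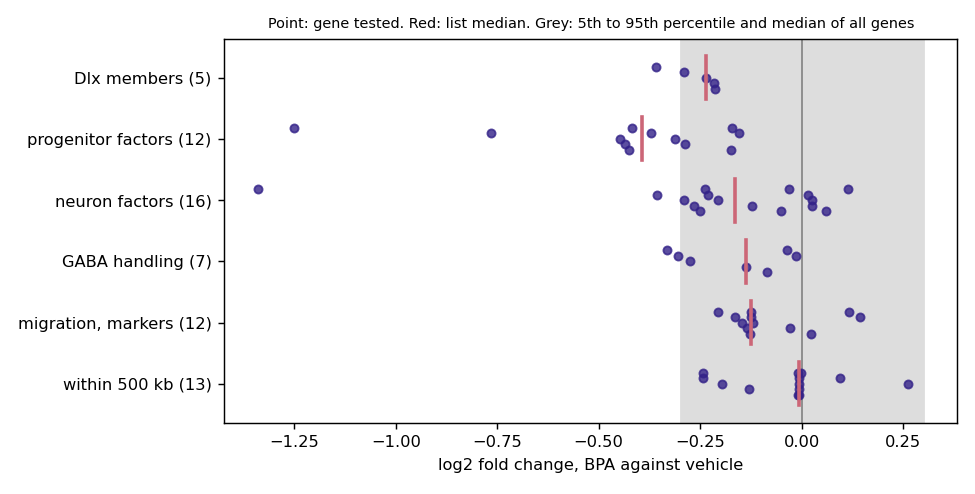
Log2 fold change, BPA against vehicle (horizontal axis), of each gene tested in the Dlx group, in 4 lists of genes of inhibitory neurons and among neighbors within 500 kb, where each point is a gene and the red bar the median. The grey band holds the 5th to 95th percentile of all genes (-0.30 to 0.30), and the progenitor factors have the lowest median (-0.39), with Nkx2-1 and, in the neuron list, Lhx8 farthest to the left.

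**Figure D5:**
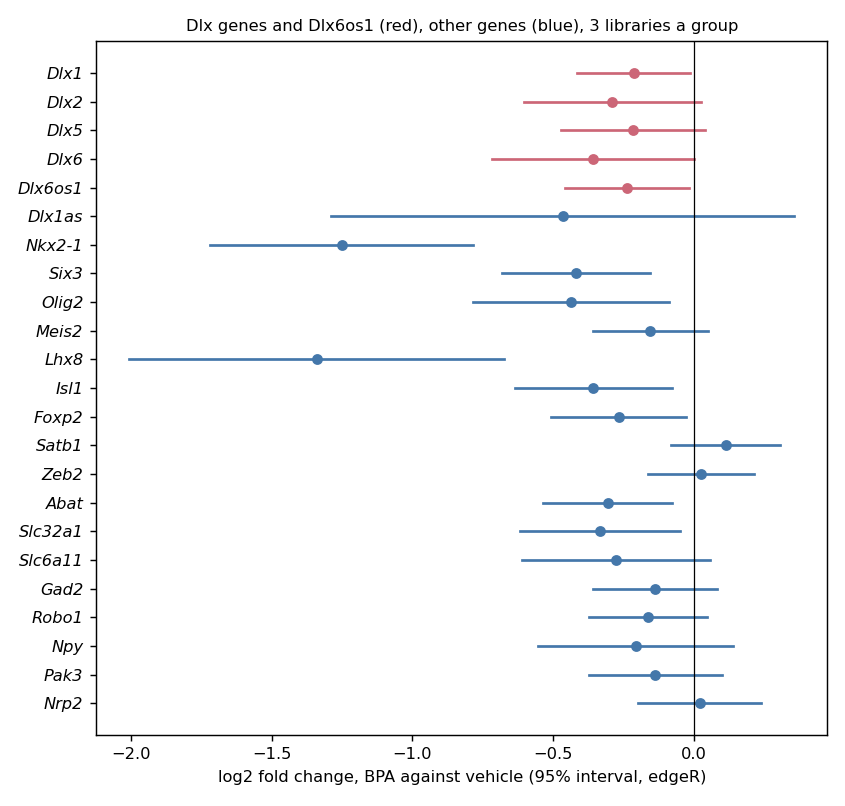
Log2 fold change, BPA against vehicle, with its 95% interval from edgeR (horizontal axis) for the 5 Dlx transcripts (red) and for Dlx1as and the genes named from the 4 lists (blue), 3 libraries per group. The intervals of Dlx1 and Dlx6os1 end just below 0 (-0.012 and -0.017), those of Dlx2, Dlx5 and Dlx6 cross it, and none of these genes passed an adjusted p of 0.1.

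The likeness of single genes to the members was described by the Pearson correlation, over the 6 libraries, of log2 CPM with the mean of the 5 members, among 11579 genes averaging at least 5 CPM. The genes most like them were Nkx2-1 (r = 0.98), Pcdhgb2 (0.97), a clustered protocadherin, Pacs2 (0.97), a sorting protein, Aamp (0.97) and U2af2 (0.96), a splicing factor. The least like were B3gntl1 (r = -0.97), Nol8 (-0.96) and Fam98b (-0.96). In all, 9 genes reached at least 0.95. These points share 6 libraries, their depth and the group difference itself, so the values are descriptions. The median r was 0.84 for the 11 progenitor factors at that level, 0.49 for the neuron factors, 0.28 for the GABA genes, 0.25 for the migration list and 0.0086 for all genes compared.

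Markers of the tissue and of its neighbors were read beside the members. The 11 pallium markers, led by Emx1 (62.9 and 62.5 CPM in vehicle and BPA) and Neurod6 (736 and 788 CPM), summed to 2802 to 3433 CPM with vehicle and 3203 to 3345 CPM with BPA, with 0 of 11 at an unadjusted p under 0.05 in edgeR. Pallium markers were thus abundant in all 6 libraries. The 9 striatum markers, among them Drd1 (11.0 and 12.2 CPM), summed to 147.5 to 166 CPM with vehicle and 118 to 155 CPM with BPA. Their median log2 fold change was -0.23 and 7 of 9 were below 0. An unadjusted p under 0.05 was reached by 1, against 2.2% of all genes in either direction. The median had the sign of the Dlx genes, the range of the summed level overlapped between groups, and the part of eminence or striatal tissue in the member differences was not tested. The diencephalon list summed to 42.4 to 56.3 and 42.5 to 48.9 CPM, of which Lhx9 gave means of 24.9 and 27.4 CPM. Nr5a1 and Hcrt had no more than 3 counts, and Pomc stood at 0.967 and 0.891 CPM. Of 4 genes tested, 2 had a log2 fold change below 0, with a median of -0.11, and 0 had an unadjusted p under 0.05 in edgeR. Otp (4.14 and 2.87 CPM) was lower in every BPA library than in every vehicle library, as were 3.57% of all genes tested. So was Gbx2 (2.06 and 0.967 CPM), which did not pass the filter and was named after its values were seen. The groups overlapped for the other genes of the list.

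Choroid plexus markers set 2 libraries apart. Their 7 genes, led by Ttr and Folr1, summed to 224 CPM in vehicle replicate 2 and 358 CPM in BPA replicate 2, and to 10.6 to 19.4 CPM in the other 4. Ttr alone gave 195 and 307.5 CPM in these libraries. The same 2 libraries had the highest Dlx2 level of their group (186 and 155 CPM) and the lowest ratios of Dlx1 to Dlx2 (2.02 and 2.09). Vehicle replicate 2 was also the highest of its group for Dlx1 (374 CPM), Dlx5 (50.8 CPM) and Dlx6 (16.6 CPM). BPA replicate 2 was the highest of its group for Dlx6os1 (162 CPM) but not for those genes. The part of choroid-adjacent tissue in the Dlx2 values was not tested. Without vehicle replicate 2 the log2 fold change of Dlx2 was -0.15, and without BPA replicate 2 it was -0.45. Skeletal and meningeal markers, with Runx2 and Sp7 under 2 CPM in every library and Twist2 at no more than 3 counts, summed to 58.8 to 99.1 CPM with vehicle and 70.4 to 93.2 CPM with BPA. The blood, vessel and microglia list, with Hbb-y (10.4 and 7.47 CPM) and Hba-x (4.71 and 3.71 CPM), summed to 112 to 118 and 105 to 122.5 CPM, and the range of one group overlapped that of the other for both lists.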

How the data were processed

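The authors deposited read counts per gene for 6 libraries of fetal mouse cortex, 3 per group, with gene symbols as the only identifiers. According to the study's methods and the submitters' processing notes, strand-marking libraries from total RNA gave 50-base single-end reads, which were placed on GRCm38 (mm10) by TopHat2 2.0.14 and summed over GENCODE models by featureCounts. Settings for strand and for reads with several alignments are not given in the sources used here. Groups came from the labels. Replicates were numbered in accession order, and libraries with the same number were not treated as pairs. The labels give GD15.5, while the study's results text gives a later age.

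Counts were tested in R 4.3.3 with edgeR 4.0.16 (filterByExpr with a minimum count of 10 and a minimum total of 15, TMM scaling, quasi-likelihood test, Benjamini-Hochberg adjustment over all 13741 genes, threshold 0.1). The study's own methods state edgeR, TMM and this rate. The genes kept held 99.7% of counts. CPM used TMM-scaled totals, and log2 CPM a prior count of 2. Coordinates, exonic lengths and 50-base transcript words came from GENCODE M21 (GRCm38). The code was tested on simulated counts. Alternatives were DESeq2 1.42.0, limma-voom (limma 3.58.1), edgeR's likelihood ratio test, other scalings and filters, antisense partners summed, and omission of each library. Intervals and floors of 3 counts cover counting error only where so stated.

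The members, gene lists and marker lists were chosen with earlier results of these data known. Named genes were the members, the other Dlx genes and Dlx1as, per list the 3 smallest p-values and the 2 highest levels, the 5 most and 3 least correlated genes, tested neighbors within 500 kb, and the first 2 genes of each marker list. Of these, 3 genes are not reported here, though they count in their lists.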

Additional observations from a re-analysis of the deposited data

How the results depend on the processing

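All 5 Dlx transcripts kept a log2 fold change below 0 under each of 14 alternatives, and none passed an adjusted p of 0.1 under any of them (adjusted p 0.949 to 1). Among these, summing antisense partners left the counts of Dlx2 and Dlx5 unchanged, and for Dlx6 it mostly gave the value of Dlx6os1. Omission of single libraries gave -0.26 to -0.15 for Dlx1, -0.45 to -0.13 for Dlx2, -0.27 to -0.15 for Dlx5, -0.47 to -0.25 for Dlx6 and -0.30 to -0.14 for Dlx6os1. The sign turned for Dlx1as, which rested on vehicle replicate 1, and for Nrp2 and Zeb2, which were near 0. Dlx1as ranged from -0.79 to 0.12 (the latter without vehicle replicate 1), Nrp2 from -0.078 without BPA replicate 3 and -0.0093 without vehicle replicate 2 to 0.089 and Zeb2 from -0.010 without BPA replicate 3 to 0.068. The log2 ratio of Dlx1 to Dlx2 ranged to 0.22 and became -0.0028 without vehicle replicate 2 and -0.027 without BPA replicate 3, that of Dlx5 to Dlx6 from -0.030 without BPA replicate 1 to 0.33, that of Dlx6os1 to Dlx6 from 0.033 to 0.25, and that between the chromosomes from -0.085 to 0.0016, 0.031 and 0.042 without vehicle replicate 3, BPA replicate 1 and BPA replicate 2. The number of genes past an adjusted p of 0.1, 0 in the fit reported, was 3 by DESeq2, 4 by the likelihood ratio test, 19 with no filter and 0 to 1 without single libraries. At an unadjusted p under 0.05, 302 genes became 126 by DESeq2, 620 with no filter, 162 with at least 10 CPM in 3 libraries (fewer genes tested), and 194 to 708 without single libraries. Nkx2-1 passed the adjusted threshold under 5 alternatives and Lhx8 under 2. The list medians without single libraries ranged from -0.42 to -0.30 for progenitor factors, from -0.18 to -0.091 for neuron factors, from -0.19 to -0.039 for GABA genes and from -0.13 to -0.013 for the migration list. The cause of these shifts was not tested. No paired analysis was run, because the labels state no litter or batch shared between groups. Sample numbers in the library titles alternate between the groups, but what they mark is not stated, and pairing by them was not tested. The depth limits Dlx6 and Dlx1as most, at no more than 118 and 40 counts per library.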
